A study of Mus musculus with 24 samples.

Results

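The genes described here are 10 genes of the blood-brain barrier endothelium, chosen by name: Cldn5, Cdh5 and Pecam1 of the cell junctions, the transporters Slc2a1, Abcb1a and Mfsd2a, the receptors Flt1, Kdr and Tek, and the surface antigen Ly6c1. Each was found by its symbol among the 55471 genes of the hypothalamic count table. All 10 passed the filter on low counts, which kept 18992 genes.

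The endothelial cells that line brain capillaries are sealed to each other by tight junctions, carry out little transcytosis and depend on transporters to move glucose, lipids and drugs across the vessel wall. VEGF and angiopoietin signals maintain these cells, and Wnt signals from neural cells induce their barrier properties. In the hypothalamus most capillaries are of this barrier type, while those of the median eminence are fenestrated and let circulating hormones such as leptin into the tissue.

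Poly-A RNA of whole hypothalamus was sequenced from male C57BL6/J mice, 18 weeks old and fed chow, in 4 groups of 6. ExpOF mice received a liquid diet with 20% (w/v) sucrose through a gastric catheter for 23 hours a day over 14 days, raised stepwise to 150% of energy. Control mice carried the same catheter and received water at the same rates, so surgery, tethering and chow were common to all groups. Hypothalami were collected on the last day of overfeeding (ExpOF d14 and Control d14) or 3 days later, with all mice on water infusion (ExpOF d14+3 and Control d14+3). All mice were wild-type, so no transgene or clone limits the model, but a whole hypothalamus mixes barrier and fenestrated vessels with neurons and glia. In such bulk RNA, fewer endothelial cells and less RNA per endothelial cell cannot be told apart.

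The libraries held between 8928182 and 34848437 counts. Control d14 replicate 4, with 10922271 counts, was left out of the main fits to follow the study, so that Control d14 held 5 mice. The study removed a Control d14 mouse for poor RNA quality without naming it, and the mean expression it lists matches the libraries without replicate 4. The integrity number of that library is 9.8, and its values are given separately. The mice were killed in July and September cohorts, with 3 mice of each group in each cohort apart from Control d14, which kept 2 in September. The RNA integrity number ranged from 8 to 10 in Control d14, from 9.6 to 10 in ExpOF d14, from 7.2 to 9.9 in Control d14+3 and from 8.8 to 10 in ExpOF d14+3. Genes that define pericytes, leptomeninges, choroid plexus, erythrocytes, microglia, astrocytes, tanycytes, oligodendrocytes, neurons and hypothalamus were counted in every group, so none of these lists had a member at 0 throughout a group. Choroid plexus genes varied most, with summed levels from 67.3 to 3096 CPM (counts relative to the library total, scaled by the trimmed mean of M-values, TMM) in Control d14, from 80.2 to 92.7 in ExpOF d14, from 66.8 to 96.4 in Control d14+3 and from 85.3 to 1353 in ExpOF d14+3. Each p-value below sets a difference between groups against the spread between mice. With a single library per mouse, that spread includes differences between libraries.

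The first question was how abundant the 10 transcripts were. Compared per length, in CPM per kilobase of exon averaged over 23 libraries, Slc2a1 was the highest at 30.3, followed by Cldn5 at 25.9 and Ly6c1 at 15.4. A middle range held Mfsd2a at 9.53, Abcb1a at 5.63 and Flt1 at 5.10 CPM per kilobase. The lowest levels per kilobase were those of Pecam1 (3.84), Tek (3.51), Cdh5 (3.17) and Kdr (1.59). Each of the 23 libraries held at least 99 counts of each gene, the lowest being Cdh5 in ExpOF d14, and the library left out held 63 counts of Tek and 96 of Kdr. Within groups, the log2 CPM of Ly6c1 and Cldn5 varied most between mice, with pooled SDs of 0.32 and 0.29, and those of the other 8 lay between 0.14 for Slc2a1 and 0.22 for Kdr.

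Next, overfed and control mice were compared on each day. In edgeR's quasi-likelihood test, 0 of the 10 genes were called at d14 at an adjusted p under 0.05, where the background was 0.00527% of the 18992 genes tested, which is Npy alone. At an unadjusted p under 0.05, 1 of the 10 was past the threshold (Cldn5, lower), against 26.7% of all genes (13.6% lower and 13.1% higher). Log2 fold changes were positive for 4 of them and negative for 6, with a median of -0.05 beside -0.02 over all genes tested. At d14+3 again 0 of 10 were called, with a background of 0%, and 1 of 10 had an unadjusted p under 0.05 (Cldn5, lower), against 7.11% of all genes (4.2% lower and 2.91% higher). Here 5 were higher and 5 lower, with a median log2 fold change of 0.0059 beside 0.0070 over all genes. DESeq2's Wald test likewise called 0 of 10 on each day, with 1 of 10 at an unadjusted p under 0.05 on each. Over all genes it called 0.874% at d14, and its counts on both days are given in the closing section. The shares at an unadjusted p above are those of edgeR. For each of the 10 genes the ExpOF and Control values overlapped on both days, while over all genes 2.5% had groups without overlap at d14 and 0.421% at d14+3.

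**Figure D1:**
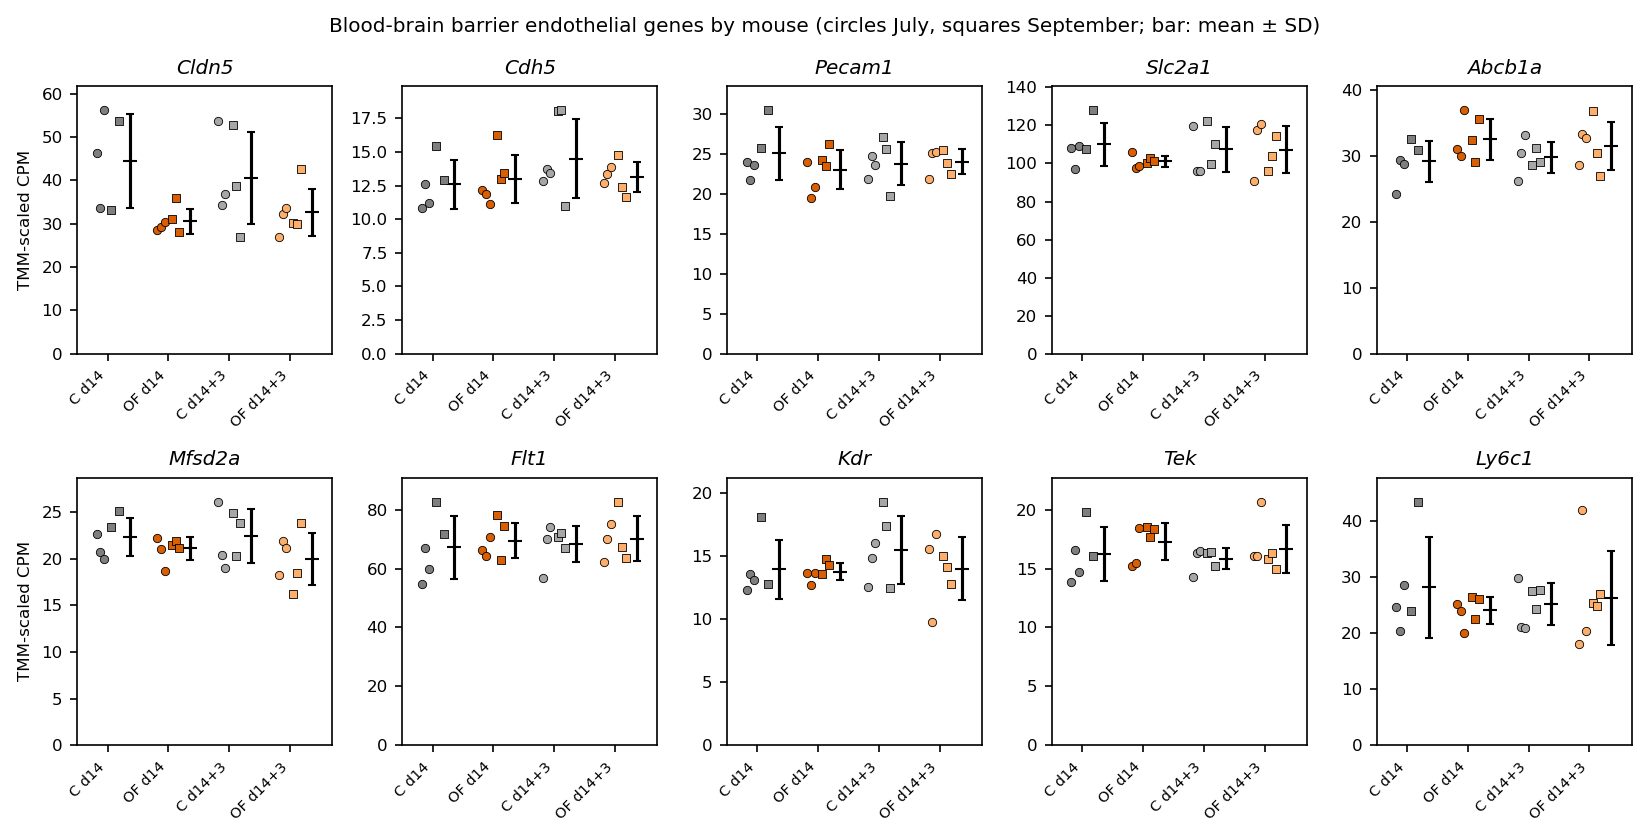
CPM scaled by TMM (vertical axes from 0) of the 10 genes in each of 23 mice, by group (C, Control; OF, ExpOF), with circles for July and squares for September mice and bars for the mean ± SD beside the points. In every panel the ExpOF and Control points of a day overlap, and Cldn5 shows the widest gap of means at d14, 30.5 against 44.5 CPM.

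Claudin-5, encoded by Cldn5, is the main sealing protein of the tight junctions of brain endothelium. Its gene lies on chromosome 16 (mm10, chr16:18776847-18778262, plus strand) and, with an exon length of 1416 bases, spans no intron. The 5 Control d14 mice had Cldn5 levels of 33.2, 46.2, 33.5, 53.7 and 56.1 CPM. In ExpOF d14 the levels ran from 28.0 to 35.97 CPM, with a median of 29.8. The controls at 46.2, 53.7 and 56.1 CPM lay above every overfed value and those at 33.2 and 33.5 CPM below the highest overfed mouse, so the groups overlapped. The means were 44.5 ± 10.8 CPM (SD, n = 5) in Control d14 and 30.5 ± 2.87 CPM (SD, n = 6) in ExpOF d14. The log2 fold change was -0.55 (SE 0.16), with an unadjusted p of 0.00244 and an adjusted p of 0.135 by edgeR, which misses the threshold. A two-sided exact permutation test on log2 CPM gave p = 0.00866, with no adjustment for the number of genes. Within cohorts the difference in mean log2 CPM was -0.59 in July and -0.42 in September.

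After 3 days of recovery, the Control mice had between 27.0 and 53.7 CPM of Cldn5, with a median of 37.7. ExpOF d14+3 mice had between 27.0 and 42.7 CPM, with a median of 31.2. The overfed range lay wholly inside the control range. The log2 fold change was -0.32 (SE 0.15, adjusted p = 0.702 by edgeR), with a two-sided exact permutation p of 0.149, and the cohort differences were -0.40 in July and -0.17 in September. Control d14 was also the group with the highest Cldn5 mean, followed by Control d14+3, ExpOF d14+3 and ExpOF d14, and no neighbours in this order differed beyond their spread. Neighbours are the closest groups, and the first and last in this order are the d14 comparison given above.

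The size of the Cldn5 difference at d14 depended on the left-out library and on how gene length was handled. Leaving out 1 library at a time kept the log2 fold change between -0.63 and -0.46, but changed whether Cldn5 was called. Without Control d14 replicate 1, the log2 fold change was -0.63 and the adjusted p 0.0207 by edgeR, which makes Cldn5 the only one of the 10 called, in a fit that called 4220 genes (22% of those tested). Without Control d14 replicate 3 the log2 fold change was also -0.63, with an adjusted p of 0.112 by edgeR. With the left-out Control d14 library put back, it was -1.08 with an adjusted p of 0.0633. After each library's trends with exon length and GC content were removed, the log2 fold change was -0.28 (SE 0.10, adjusted p = 0.177) at d14 and -0.19 at d14+3. With a library score for the profile of the left-out library added to the model, it was -0.14 (SE 0.10, adjusted p = 0.917) at d14 and -0.098 at d14+3. The score itself differed between the diets at d14, as given below, so score and diet cannot be told apart there. Dropping the 4 libraries with an integrity number under 8.5 moved the Cldn5 log2 fold change to -0.47 (adjusted p = 0.332 by edgeR) at d14. At d14+3 the same fit gave -0.57 (adjusted p = 0.141). That fit kept 3 of 6 Control d14+3 mice, all of RNA extraction round 1, beside all 6 ExpOF d14+3 mice of both rounds. Integrity, round and diet cannot be told apart there. With the integrity number as a covariate the log2 fold change was -0.62 (adjusted p = 0.0816 by edgeR) at d14 and -0.40 (adjusted p = 0.322) at d14+3. The direction was negative under each of the 37 alternatives on both days.

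**Figure D2:**
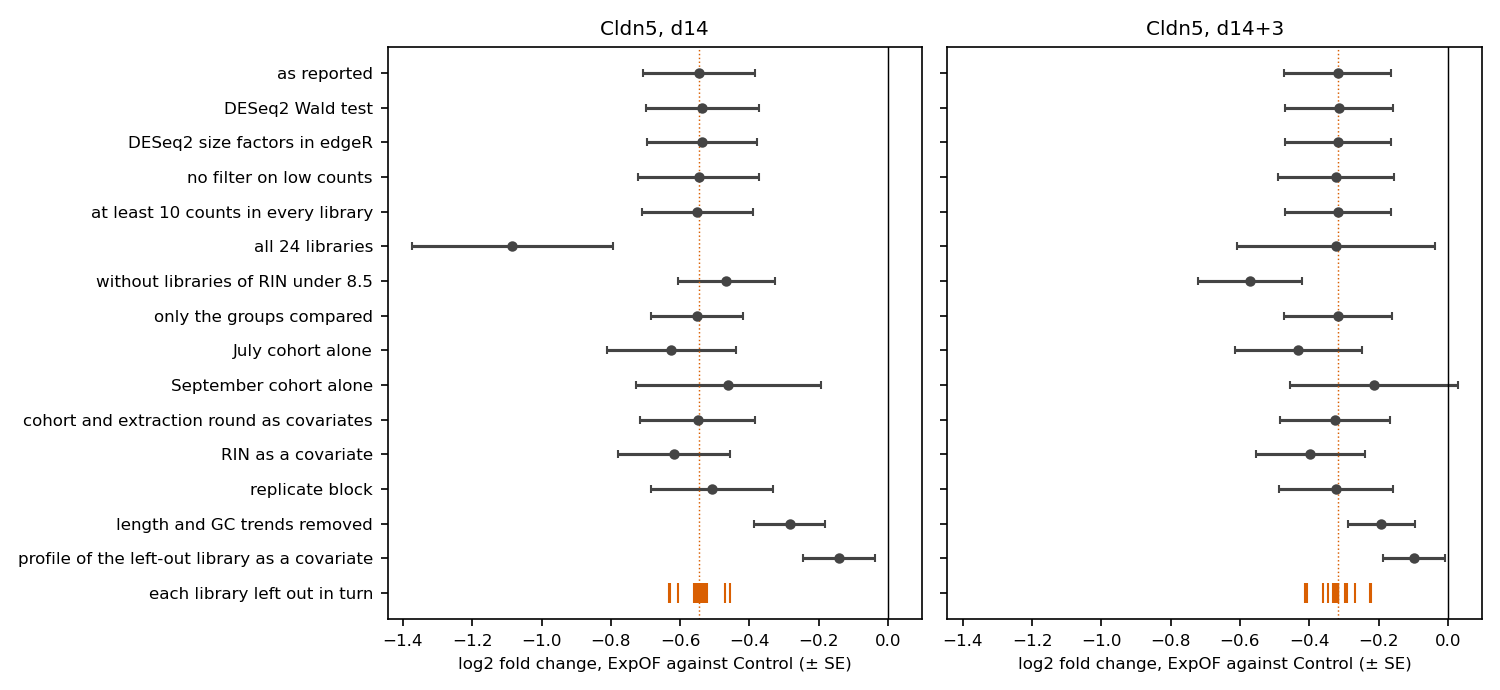
Log2 fold change of Cldn5, ExpOF against Control, with its SE (horizontal axis) under each way of processing, at d14 and d14+3; ticks in the last row are the fits that leave out 1 library each, and the dotted line is the reported value. All points lie below 0, and the fits that adjust for exon length or for the profile of the library left out lie nearest to 0, at -0.28 and -0.14 on d14.

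The promoter of Cldn5 is shown with that of Tek because this pair stood furthest apart in the left-out library, as described below. Both come from RefSeq (GRCm38.p6), from 250 bases before to 50 bases after the gene start, at chr16:18776597-18776896 for Cldn5 and chr4:94739039-94739338 for Tek, each on the plus strand, and capitals mark CpG dinucleotides.
Cldn5: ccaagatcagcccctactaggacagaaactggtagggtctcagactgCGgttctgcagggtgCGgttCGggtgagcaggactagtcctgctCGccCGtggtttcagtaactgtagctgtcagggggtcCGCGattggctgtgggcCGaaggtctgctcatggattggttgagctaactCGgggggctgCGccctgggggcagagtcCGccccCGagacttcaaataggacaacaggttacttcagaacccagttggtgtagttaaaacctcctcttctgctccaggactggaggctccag
Tek: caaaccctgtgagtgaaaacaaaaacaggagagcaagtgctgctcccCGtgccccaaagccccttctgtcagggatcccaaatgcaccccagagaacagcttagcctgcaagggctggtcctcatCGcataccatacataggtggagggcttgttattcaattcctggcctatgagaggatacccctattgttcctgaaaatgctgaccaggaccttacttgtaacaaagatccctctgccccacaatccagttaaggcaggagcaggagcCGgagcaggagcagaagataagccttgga
The Cldn5 window held 12 CpGs and the Tek window 3, beside a median of 7 over 32851 RefSeq promoters of the same length. Promoters of 8 of the 10 genes were matched by symbol, and those of Cdh5 and Pecam1 were not used here. The core letters GGAAGT of ETS factors, the family to which the endothelial factors ERG and FLI1 belong, were searched on both strands. They occurred in the windows of 3 of the 8 genes (Kdr, Flt1 and 1 of 2 Ly6c1 promoters) and in 23.8% of all promoters, so neither window shown here holds them.

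VE-cadherin (Cdh5, chr8:104101625-104144511, plus strand) holds endothelial cells together at adherens junctions. Its level ran from 10.9 to 15.4 CPM in Control d14, with a median of 12.6, and from 11.2 to 16.3 CPM in ExpOF d14, with the same median of 12.6. The ranges nearly coincided, and the log2 fold change was 0.054 (SE 0.12). At d14+3 the range was 10.99 to 18.1 CPM in Control mice (median 13.6) and 11.7 to 14.7 CPM in ExpOF mice (median 13.0). The 2 highest values of all groups, 18.0 and 18.1 CPM, were Control d14+3 mice of the September cohort, and the log2 fold change of -0.15 (SE 0.12) was -0.25 in September and -0.00069 in July as a difference of mean log2 CPM. PECAM-1 (Pecam1 or CD31, chr11:106654217-106750628, minus strand), an adhesion molecule found on all endothelium, platelets and some leukocytes, ran from 21.7 to 30.4 CPM in Control d14 and from 19.4 to 26.2 CPM in ExpOF d14, with medians of 23.9 and 23.7. Its log2 fold changes were -0.12 (SE 0.090) at d14 and 0.014 (SE 0.086) at d14+3, where the medians were 24.1 CPM in Control and 24.5 CPM in ExpOF mice. Cdh5 and Pecam1 thus differed between diets by less than the spread between mice.

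GLUT1 (Slc2a1, chr4:119108711-119137983, plus strand) brings glucose across the barrier and is also made by astrocytes. Control d14 mice had between 97.1 and 128 CPM (median 108), and ExpOF d14 mice between 97.8 and 106 CPM (median 100.7). The overfed mice thus lay in the lower part of the control range, with a log2 fold change of -0.12 (SE 0.081, adjusted p = 0.320 by edgeR) and a two-sided exact permutation p of 0.0541. At d14+3 the ranges of 95.8 to 122 CPM in Control and 90.9 to 121 CPM in ExpOF mice nearly coincided, with a log2 fold change of -0.0021 (SE 0.077). The cohorts went opposite ways there, with differences in mean log2 CPM of 0.075 in July and -0.079 in September. An opposite-strand gene overlaps an exon of Slc2a1, and although the libraries were stranded, whether reads were counted by strand is not given in the sources used here, so its reads may be included.

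P-glycoprotein (Abcb1a, chr5:8660077-8748575, plus strand) pumps drugs and other lipophilic molecules back into the blood. It was the gene with the most positive log2 fold change at d14, 0.15 (SE 0.086, unadjusted p = 0.0893, adjusted p = 0.244 by edgeR). The levels were 24.3 to 32.6 CPM in Control d14 (median 29.4) and 29.1 to 37.0 CPM in ExpOF d14 (median 31.8). The groups overlapped, with 2 overfed mice, at 35.7 and 37.0 CPM, above all controls. The difference was 0.25 in July and 0.024 in September as a difference of mean log2 CPM, and with the library score in the model the log2 fold change was -0.00025. Levels at d14+3 were 26.3 to 33.2 CPM in Control mice and 27.0 to 36.9 CPM in ExpOF mice, with a log2 fold change of 0.082 (SE 0.082). Abcb1a shares 15.3% of its 51-base windows with its close copy Abcb1b, and an opposite-strand gene overlaps 1 of its exons, so some reads may be split or misassigned. Abcb1b itself was measured at 4.16 CPM and had log2 fold changes of 0.035 (SE 0.15) and 0.10 (SE 0.14) on d14 and d14+3.

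Mfsd2a (chr4:122946850-122961152, minus strand) carries lysophospholipids with omega-3 fatty acids into the brain and keeps transcytosis low. In Control d14 it ran from 20.0 to 25.1 CPM (median 22.7) and in ExpOF d14 from 18.7 to 22.2 CPM (median 21.3). The overlap was large, and the log2 fold change was -0.079 (SE 0.094). At d14+3 it ran from 19.0 to 26.1 CPM in Control (median 22.1) and from 16.2 to 23.9 CPM in ExpOF mice (median 19.8). The overfed mice at 16.2, 18.2 and 18.5 CPM lay below every control. The log2 fold change there was -0.17 (SE 0.090, unadjusted p = 0.0670, adjusted p = 0.723 by edgeR), with a two-sided exact permutation p of 0.162, and both cohorts were negative (-0.090 in July and -0.25 in September).

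Flt1 (chr5:147561604-147726011) and Kdr (chr5:75932827-75978458), both on the minus strand, encode VEGF receptors 1 and 2, of which the second carries most of the growth signal and the first acts largely as a decoy. Flt1 ran from 54.8 to 82.6 CPM in Control d14 and from 62.9 to 78.1 CPM in ExpOF d14, with medians of 67.0 and 68.5. At d14+3 it ran from 56.8 to 74.0 CPM in Control and from 62.3 to 82.7 CPM in ExpOF mice, with medians of 70.3 and 68.7. At d14 the overfed range lay inside the control range, and at d14+3 overfed mice at 75.0 and 82.7 CPM lay above every control, with log2 fold changes of 0.049 (SE 0.093) and 0.038 (SE 0.089). Kdr ran from 12.3 to 18.1 CPM in Control d14 and from 12.7 to 14.8 CPM in ExpOF d14, with a log2 fold change of -0.017 (SE 0.13). At d14+3 Kdr was at 12.5 to 19.3 CPM in Control and at 9.74 to 16.8 CPM in ExpOF mice, with medians of 15.5 and 14.6 and a log2 fold change of -0.14 (SE 0.12). The lowest Kdr value of all groups was that of a single ExpOF d14+3 mouse, and the others of its group lay within the control range.

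TIE2 (Tek, chr4:94739289-94874976, plus strand) is the angiopoietin receptor that keeps vessels quiescent. Its levels were 13.9 to 19.9 CPM in Control d14 (median 16.1) and 15.2 to 18.5 CPM in ExpOF d14 (median 18.0). At d14+3 they were 14.3 to 16.5 CPM in Control mice (median 16.3) and 14.97 to 20.7 CPM in ExpOF mice (median 16.1). The groups overlapped on both days, with log2 fold changes of 0.090 (SE 0.090) and 0.070 (SE 0.086). Ly6c1 (chr15:75044018-75048803, minus strand), a GPI-anchored antigen of brain capillaries and of monocytes, ran from 20.3 to 43.4 CPM in Control d14 and from 20.1 to 26.4 CPM in ExpOF d14, with equal medians of 24.6. At d14+3 it ran from 20.8 to 29.9 CPM in Control and from 18.0 to 41.9 CPM in ExpOF mice, with medians of 25.9 and 25.1. A single Control d14 mouse, at 43.4 CPM, and a single ExpOF d14+3 mouse, at 41.9 CPM, lay far above the rest, and the log2 fold changes were -0.22 (SE 0.18) and 0.056 (SE 0.17). Ly6c1 shares 21.2% of its 51-base windows with Ly6c2, which had at most 22 counts in a library and did not pass the filter.

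**Figure D3:**
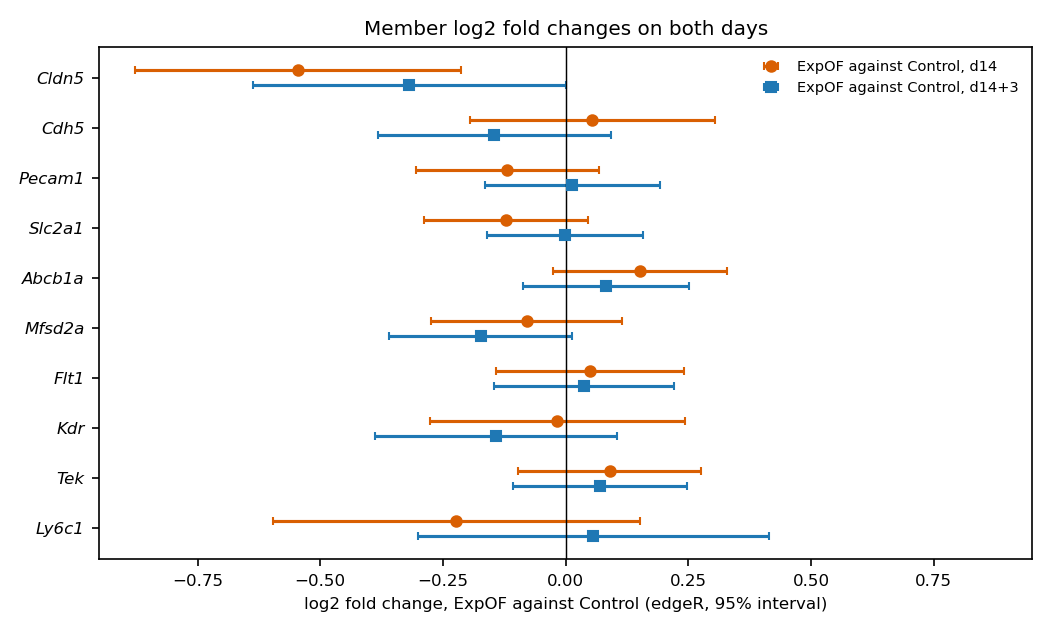
Log2 fold change, ExpOF against Control (horizontal axis), of each gene at d14 (circles) and d14+3 (squares) from edgeR, with 95% intervals as bars. Only the interval of Cldn5 at d14 lies clearly below 0, around -0.55, and at d14+3 it ends at 0.

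For the 9 genes other than Cldn5, the 95% intervals of the log2 fold change all crossed 0 on both days. At d14 they lay between -0.60 (the lower bound of Ly6c1) and 0.33 (the upper bound of Abcb1a), and at d14+3 between -0.39 (Kdr) and 0.41 (Ly6c1). With the library score in the model, the log2 fold changes of Slc2a1, Flt1, Tek, Cdh5, Abcb1a and Mfsd2a at d14 changed sign, to values between -0.10 (Flt1) and 0.053 (Mfsd2a). The score differed between the diets at d14, so its part and that of diet cannot be told apart in these values. The tightest estimate was that of Slc2a1, with an SE of 0.077 at d14+3. In July 4 of the 9 were lower in ExpOF d14 and in September 6 of 9, and at d14+3 the counts were 3 and 7 of 9.

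The next question was whether the difference between diets changed between the days. In edgeR's test of the interaction of diet and day, 0 of 10 genes were called (background 0%), with 0 of 10 at an unadjusted p under 0.05, where 4.42% of all genes had one, and DESeq2 gave 0 and 0. The smallest p was that of Cdh5 (0.243, adjusted p = 0.903), with an interaction of -0.20 (SE 0.17) on the log2 scale. The largest interaction in size was that of Ly6c1, 0.28 (SE 0.25), and that of Cldn5 was 0.23 (SE 0.22). Against time alone, 0 of 10 were called in ExpOF mice (background 0%) and 0 of 10 in Control mice (background 1.15%), by edgeR and by DESeq2, with 0 of 10 at an unadjusted p under 0.05 in either, where 7.79% and 12.7% of all genes had one. The shares of all genes for the interaction and for time are those of edgeR. Log2 fold changes of d14+3 against d14 ran from -0.088 (Mfsd2a) to 0.12 (Ly6c1) in ExpOF and from -0.16 (Ly6c1) to 0.21 (Cdh5) in Control mice. When the 4 groups were ordered by mean for each gene, none of the 30 pairs of neighbours differed beyond the spread between mice, the smallest two-sided exact permutation p being 0.149. Neighbours in such an order are the closest groups, so this does not cover groups further apart. For Cldn5 the lowest and highest groups, ExpOF d14 and Control d14, had an exact permutation p of 0.00866.

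The left-out Control d14 library was matched above to the mouse that the study removed for poor RNA quality. Its Cldn5 level was 171 CPM, 3.87 times the mean of the other Control d14 mice on the same scale, while its Tek level was 6.45 CPM, 0.400 times theirs. Mfsd2a was at 29.6 CPM and Ly6c1 at 33.9 CPM, 1.33 and 1.21 times the others, and Kdr was at 0.709 times. The remaining 5 were between 0.805 times (Abcb1a) and 1.00 times (Flt1). In this library 4 of the 10 genes were higher and 6 lower than in the other controls. These ratios rest on 1 library and have no test. RNA quality and expression in this mouse cannot be told apart.

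In that library the shorter genes tended to be higher. Cldn5, Ly6c1 and Mfsd2a, the 3 shortest at 1416, 1677 and 2250 bases of exon, were the highest relative to the other Control d14 mice, and the rank correlation of length with the log2 difference was -0.64 across the 10 genes. The longest gene, Flt1, came next in this order at 0.019 on the log2 scale, and Tek, at 4712 bases, was last at -1.30. Over all genes tested the median log2 difference of this library went from 0.81 for exon lengths under 1 kb to -0.61 for those over 7 kb. In ExpOF against Control at d14, the same medians went the other way, from -0.19 under 1 kb and -0.20 at 1 to 2 kb to 0.14 over 7 kb, and at d14+3 from -0.03 and -0.07 to 0.06. Across the 10 genes the rank correlation of length with the log2 fold change was 0.60 at d14 and 0.41 at d14+3. At 1 to 2 kb, the class of Cldn5 and Ly6c1, 75.0% of all genes were lower in ExpOF d14, and at d14+3 63.9%. The library score for the left-out library's profile, computed without the 10 genes, was higher in Control d14 than in ExpOF d14 (means 0.051 and -0.054, difference -0.11, two-sided exact permutation p = 0.0281). The profile was taken against the mean of these same Control d14 mice. The score is therefore not independent of a group compared, and its p at d14 is only descriptive. The difference in score at d14+3 was -0.055 (exact permutation p = 0.195). The part of this length trend in the Cldn5 difference was not tested beyond the values with the trend removed, given above.

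**Figure D4:**
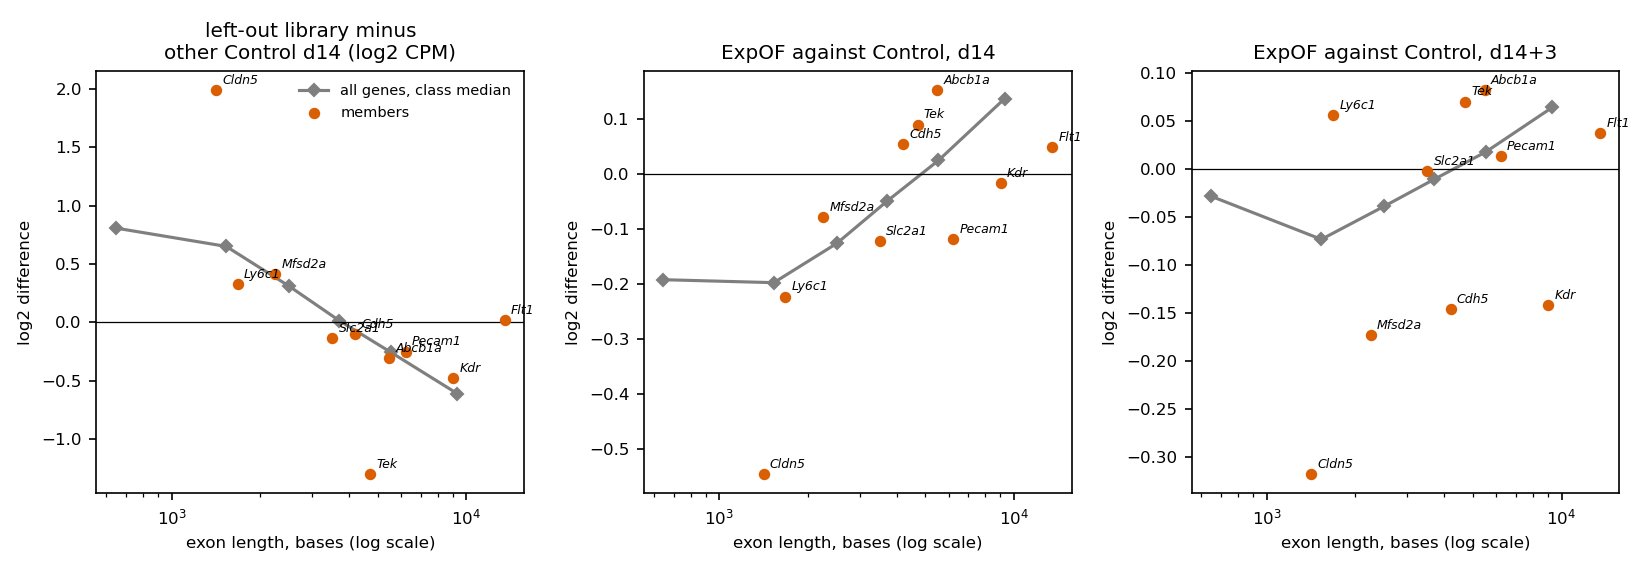
Log2 difference (vertical axes, scaled separately) against exon length in bases (log scale) for the 10 genes (orange) and the class medians of all genes tested (grey), in the left-out library against the other Control d14 mice and in ExpOF against Control on each day. The medians slope down in the left-out library, from 0.81 to -0.61, and up in the diet comparison at d14, from -0.19 to 0.14, with Cldn5 beyond them in all panels.

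Whether the 10 genes varied together between mice was examined on log2 CPM after group means were subtracted, over 23 libraries. Of the 45 pairs 30 correlated positively, with a median Pearson r of 0.31 and a range from -0.57 (Kdr and Ly6c1) to 0.86 (Flt1 and Abcb1a). High values were also seen for Slc2a1 with Mfsd2a (0.83), Flt1 with Tek (0.73), Slc2a1 with Ly6c1 (0.69) and Pecam1 with Cdh5 (0.67). Cldn5 went most with Slc2a1 (0.61) and against Flt1 (-0.37) and Abcb1a (-0.36). The genes fell into blocks by length, in that all 6 pairs among the 4 shortest genes (Cldn5, Ly6c1, Mfsd2a and Slc2a1) were positive, with a median of 0.58, and all 15 pairs among the 6 longest were positive, with a median of 0.55. Of the 24 pairs with 1 gene of each block 9 were positive, with a median of -0.093. With length and GC trends removed, 18 of these 24 pairs were positive, with a median of 0.11 and a lowest r of -0.57, and 38 of all 45. Within the blocks, 5 of 6 pairs of the short genes were then positive (median 0.45) and 15 of 15 of the long ones (median 0.47). These pairs share libraries, depth and base composition, and the blocks were named after their values were seen.

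**Figure D5:**
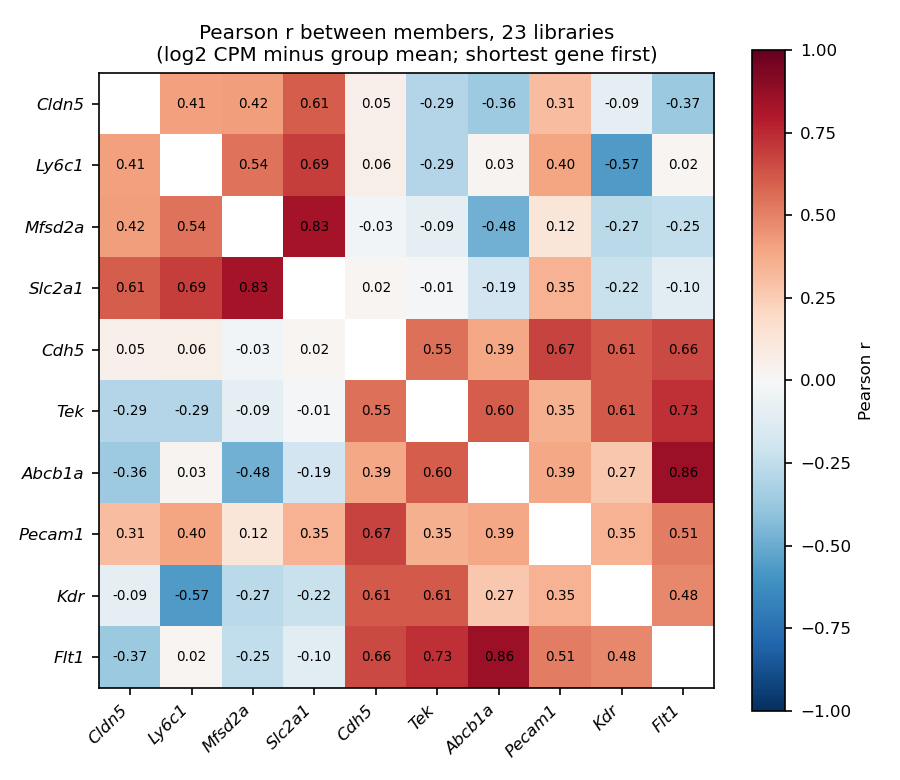
Pearson r between each pair of the 10 genes over 23 libraries, on log2 CPM minus the group mean, with genes from the shortest to the longest exon length (colour scale from -1 to 1). The upper left block of 4 short genes and the lower right block of 6 long genes are positive throughout, and r between the blocks reaches from -0.57 to 0.40.

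Over the same 23 libraries, the gene whose deviations were most like the mean of the 10 was Eng (r = 0.88), which encodes endoglin, a TGF-beta co-receptor of endothelium. It was followed among 14163 genes by Tgfbr2 (0.82), a TGF-beta receptor, Inpp5d (0.80), Depdc5 (0.76), Scarf1 (0.74), Nhsl1 (0.74), Stat6 (0.74), Slc25a35 (0.73), Galnt15 (0.73) and Nf2 (0.73). Of these only Eng stood in the vascular lists used here. For single genes, the closest were Ptprb for Flt1 (r = 0.94), which encodes the vascular phosphatase VE-PTP, Ly6a for Ly6c1 (0.93), Blvrb for Cldn5 (0.91) and Itpk1 for Slc2a1 (0.90).

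The wider vascular programme was described through 8 lists with 154 genes, of which 151 passed the filter and none is among the 10. By edgeR 0 of 151 were called on either day. Their log2 fold changes were negative for 95 of 151 at d14, where those of 53.4% of all genes were, and for 82 of 151 at d14+3, against 47.9%. At d14, 28 had an unadjusted p under 0.05 (9 higher and 19 lower, 18.5%, against 26.7% of all genes), and the median log2 fold change was -0.077 beside -0.02 over all genes. At d14+3, 11 had one (5 higher and 6 lower, 7.28%, against 7.11%), with a median of -0.015. DESeq2 called 2 of them at d14 (1.32%, against 0.874% of all genes), Plvap and Ackr1, both lower, and 0 at d14+3. Without Control d14 replicate 1, edgeR called 24 of the 152 then tested at d14 (15.8%, against 22% of all genes), 12 of these lower, and 0 at d14+3.

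Among junction genes, 4 of 16 had an unadjusted p under 0.05 with a higher level in ExpOF d14 and 2 with a lower one. Over all genes, 13.1% were higher and 13.6% lower at such a p at d14, and 2.91% and 4.2% at d14+3. Jam2, a junctional adhesion molecule, had a log2 fold change of 0.17 (SE 0.061, adjusted p = 0.138 by edgeR), and Cldn12 one of 0.14 (SE 0.055). At d14+3 the count was 0 of 16, and the smallest p was that of Ctnnd1 (p120-catenin), at -0.13 (SE 0.064). The abundant Ctnnb1 (beta-catenin, 98.1 CPM per kilobase) had log2 fold changes of -0.0030 and 0.049. The barrier transporters had 3 of 27 higher and 4 lower at such a p at d14, and 1 higher and 0 lower at d14+3. Slc39a10, a zinc importer, had a log2 fold change of 0.33 (SE 0.12) at d14, and Abcg2, a drug exporter, one of -0.017 (SE 0.073) at d14 and 0.16 (SE 0.070) at d14+3.

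In the VEGF and angiopoietin pathway, 0 of 20 were higher and 5 lower at d14 at an unadjusted p under 0.05, and 1 higher and 1 lower at d14+3. The shares over all genes were 13.1% higher and 13.6% lower at d14, and 2.91% and 4.2% at d14+3. The ligand gene Vegfa, whose product is the main growth factor for Flt1 and Kdr, had log2 fold changes of -0.17 (SE 0.059, unadjusted p = 0.0080, adjusted p = 0.135 by edgeR) at d14 and -0.15 (SE 0.056, adjusted p = 0.580) at d14+3. Vegfb had -0.30 (SE 0.12) and -0.14 (SE 0.11), and Apln, the ligand of the apelin receptor, -0.33 (SE 0.11) and -0.098 (SE 0.10). The VEGF receptor genes Flt1 and Kdr, described above, had log2 fold changes of 0.049 and -0.017 at d14. Of the Wnt and barrier induction genes 1 of 20 was higher and 0 lower at d14 (Lrp6, a Wnt co-receptor, 0.28, SE 0.11), and 0 higher and 2 lower at d14+3 (Wnt7b, -0.22, SE 0.078, unadjusted p = 0.0098, and Sox17, -0.27, SE 0.12). Endothelial transcription factors and Notch genes had 1 of 24 higher at d14 (Jag1, a Notch ligand, 0.25, SE 0.097) and 0 lower, and 0 higher and 2 lower at d14+3.

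General endothelial genes were lower in ExpOF d14 in 24 of 31 cases, against 53.4% of all genes, with a median log2 fold change of -0.15. Of the 31, 6 had an unadjusted p under 0.05, all lower. Over all genes at d14, 26.7% had such a p, 13.6% of all genes being lower and 13.1% higher. Egfl7, an endothelial matrix protein, had -0.38 (SE 0.11, adjusted p = 0.135 by edgeR) and Bsg, basigin, -0.34 (SE 0.11). With length and GC trends removed the median of this list was -0.041. Markers of fenestrated and inflamed endothelium had a median of -0.41 at d14, with 8 of 9 lower and 2 at an unadjusted p under 0.05, and of 0.12 at d14+3, with 3 of 9 lower and 3 at such a p (7.11% of all genes). With length and GC trends removed their medians were -0.32 and 0.11. The choroid plexus markers, which varied most between mice, had median log2 fold changes of -1.60 at d14 and 0.86 at d14+3. The part of choroid plexus tissue in the values of the fenestrated and inflamed list was not tested. Plvap, which forms the diaphragms of fenestrae, had -0.55 (SE 0.15, adjusted p = 0.135 by edgeR) at d14 and -0.31 (SE 0.14, adjusted p = 0.697) at d14+3, and Ackr1, a chemokine receptor of venules, -0.41 (SE 0.11, adjusted p = 0.135) and 0.028 (SE 0.10). Caveolar and transcytosis genes had a median of -0.11 at d14 (7 of 9 lower, 1 at an unadjusted p under 0.05) and of -0.22 at d14+3 (8 of 9 lower, 0 at an unadjusted p under 0.05). Hypoxia targets had 1 of 16 higher and 6 lower at d14 at an unadjusted p under 0.05, and 0 and 2 at d14+3. At d14+3, 2.91% of all genes were higher and 4.2% lower at such a p, and Ddit4 had -0.37 (SE 0.12, adjusted p = 0.438 by edgeR).

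Among markers of pericytes and smooth muscle, and of the leptomeninges, 0 of 13 and 0 of 10 were called by edgeR on either day. Of the 13 pericyte and smooth muscle markers 10 were lower in ExpOF d14, 6 of them at an unadjusted p under 0.05, where 53.4% of all genes were lower and 26.7% had such a p. Their summed level was 281 to 305 CPM in Control d14 and 249 to 280 CPM in ExpOF d14, so that the lowest control and the highest overfed mouse nearly met, with 0 markers at 0. Kcnj8, a pericyte potassium channel subunit, had -0.59 (SE 0.16, adjusted p = 0.135 by edgeR) and Vtn, vitronectin, -0.34 (SE 0.10), whereas the abundant Rgs5 had 0.0026 (SE 0.056). The sums at d14+3 were 262 to 302 CPM in Control and 261 to 279 CPM in ExpOF mice. All 10 leptomeningeal markers were lower in ExpOF d14, 4 at an unadjusted p under 0.05, with sums of 60.4 to 125 CPM in Control d14 and 51.3 to 109 CPM in ExpOF d14. The summed level of the 10 barrier genes was 332 to 425 CPM in Control d14, 326 to 362 in ExpOF d14, 342 to 408 in Control d14+3 and 311 to 382 in ExpOF d14+3. The part of these neighbouring cells in the values of the barrier genes was not tested.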

How the data were processed

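Gene counts were deposited by the authors for 24 libraries as raw counts per gene, with no normalization. Per the labels and the submitters' processing notes, reads were aligned to mm10 with STAR and counted with featureCounts 1.6.4. The present tests used edgeR 4.0.16 under R 4.3.3. Genes were kept by filterByExpr (minimum count 10, minimum total 15), libraries were scaled by TMM, and 1 robust quasi-likelihood model with a mean per group was fitted to 23 libraries. The contrasts were ExpOF against Control on each day, their interaction, and the days within each diet, with Benjamini-Hochberg adjustment over all 18992 genes at 0.05. CPM values were scaled by TMM, and log2 CPM used a prior count of 2. Single genes were also compared by two-sided exact permutation tests. DESeq2 1.42.0 and the other alternatives are given in the closing section. The 60 pairs of libraries within groups all differed by more than sampling noise, so none was treated as a duplicate.

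The 10 genes and the other lists were chosen with earlier results of these data known. From each other list the 2 genes with the highest level per kilobase and the gene with the smallest p on each day were eligible to be named. The scripts were tested on simulated counts. Length and GC trends were removed per library with splines of 5 degrees of freedom. Authors' comparisons were not used.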

Additional observations from a re-analysis of the deposited data

Results flagged for a closer look

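Within groups, 40 sets of values (10 genes in 4 groups) were checked for a mouse far from the rest, of which chance alone gives about 5%, and 3 met the limit. Kdr in Control d14 replicate 1 was at 18.09 CPM, with the next mouse at 13.6 CPM. Tek in ExpOF d14+3 replicate 6 was at 20.68 CPM, with the next at 16.4 CPM. Mfsd2a in ExpOF d14 replicate 5 was at 18.71 CPM, with the next at 21.1 CPM, in the library with the lowest total, 8928182 counts.

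In the library left out of the main fits, Control d14 replicate 4, Cldn5 was at 171 CPM and Mfsd2a at 29.6 CPM, both above every other Control d14 mouse.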

How the results depend on the processing

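The results were recomputed under 37 alternatives, of which 23 left out 1 library each. The removal of length and GC trends and the score for the library left out were chosen after seeing the data. Of the 10 genes, 0 were called in every fit but that without Control d14 replicate 1, so that leaving out 1 library gave 0 to 1 called at d14. Replicate numbers were not treated as pairs, since same-numbered mice could come from different cohorts, as replicate 1 of Control d14 (September) and of ExpOF d14 (July). Of 11 same-numbered pairs 2 correlated above 0.1 (range -0.51 to 0.41), which alone cannot exclude a pairing. With the replicate block the Cldn5 log2 fold change at d14 was -0.51 (SE 0.18, adjusted p = 0.228 by edgeR).

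Some log2 fold changes, none of them called, changed sign, including the most positive at d14, that of Abcb1a (0.15). With all 24 libraries Kdr at d14 was at 0.056. In July alone Kdr at d14 was at 0.035, and at d14+3 Slc2a1 was at 0.078 and Cdh5 at 0.00066. In September alone Flt1 at d14 was at -0.10, and at d14+3 Pecam1 was at -0.019, Tek at -0.029 and Ly6c1 at -0.051. Without libraries of integrity under 8.5, Pecam1 was at -0.052 and Ly6c1 at -0.054 at d14+3. With length and GC trends removed, Flt1 was at -0.064 and Mfsd2a at 0.075 at d14, and Pecam1 at -0.0038, Slc2a1 at 0.039 and Flt1 at -0.022 at d14+3. With the score in the model, Slc2a1 was at 0.0053, Flt1 at -0.10, Tek at -0.033, Cdh5 at -0.017, Abcb1a at -0.00025 and Mfsd2a at 0.053 at d14, and Slc2a1 at 0.067, Flt1 at -0.045 and Tek at -1.31e-05 at d14+3. The cause of these changes was not tested. Leaving out 1 library, the ranges that crossed 0 were -0.020 to 0.14 (Flt1), -0.062 to 0.096 (Kdr) and -0.032 to 0.14 (Cdh5) at d14, and -0.036 to 0.058 (Pecam1), -0.039 to 0.044 (Slc2a1), -0.015 to 0.073 (Flt1) and -0.13 to 0.15 (Ly6c1) at d14+3.

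Over all genes, edgeR called 1 at d14 and DESeq2 166, and at d14+3 the counts were 0 and 55; leaving out 1 library gave 1 to 4220 at d14.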
